A study of Mus musculus with 2 samples.

Results

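The NF-kB subunits and their IkB inhibitors were followed through the leukocytes of MC38 tumors with and without radiation. The 10 genes, found by their symbols among the 32285 genes of both count matrices, were Nfkb1, Nfkb2, Rel, Rela and Relb (the 5 DNA-binding subunits), Nfkbia, Nfkbib and Nfkbie (the 3 IkB proteins that hold the subunits in the cytoplasm) and Nfkbiz and Bcl3 (2 IkB proteins that act in the nucleus). MC38, a mouse colon carcinoma line, was grown under the skin of wild-type mice of the C57BL/6J background, male and female and 8 to 10 weeks old. In the paper WT stands for Ythdf2fl/fl mice, and sex and age are given there for its mice in general. Tumors of the Control library were not irradiated, and those of the IR library had received 1 fraction of 20 Gy when they were taken 4 days later. Cells were sorted on CD45, the surface protein shared by white blood cells. Each library held 4 pooled tumors and each group was 1 library, so no difference below has a replicate check, and every interval covers counting error only. In the sample labels the cell type reads CD45+CD11b+Ly6Chi, a monocyte gate that the data do not bear out: Itgam (CD11b) was detected in 62.1% of cells in Control and 60.5% in IR, and T, NK and dendritic cells were present in both.

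Cells were taken as barcodes with at least 1000 UMIs (unique molecular identifiers, each 1 counted RNA molecule) and at most 25% mitochondrial UMIs, which left 4679 barcodes in Control and 3411 in IR with medians of 7302 and 8266 UMIs. A total of 3570 and 2613 of them fell in 11 lineages by marker genes, and 6 barcode sequences occurred in both libraries. Every marker of every lineage was detected in it in both libraries. Ptprc, which encodes CD45, was found in 82.9% to 90.1% of monocytes and macrophages but in 8.3% and 10.8% of fibroblasts, a cell type that a CD45 sort should remove. The name fibroblast rests on Col1a1, Col1a2, Col3a1, Dcn and Sparc, and whether this gate held MC38 tumor cells was not tested. Its median depths were 21486.5 UMIs in Control and 33610 in IR, against 8093 and 8979.5 in macrophages. The libraries were compared in the 6 lineages with at least 50 cells in each, namely monocytes (590 and 933 cells), macrophages (1978 and 456), mature dendritic cells (DCs, 120 and 151), T cells (377 and 230), NK cells (280 and 374) and fibroblasts (84 and 102). The other 5 lineages, neutrophils, mast cells or basophils, nonclassical monocytes, cDC1 and cDC2, held 18 to 35 Control cells and are given as values. Levels are CPM, the UMIs of a gene summed over the cells of a lineage and scaled to 1000000 UMIs of that lineage, with exact 95% Poisson intervals.

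NF-kB is a family of dimeric transcription factors that switch on inflammatory, survival and antigen-presentation genes. In resting cells IkB proteins mask the dimers in the cytoplasm, and receptors for danger signals, cytokines or antigen activate the IKK kinases, which mark IkB for destruction. In the canonical arm dimers of Rela, Rel and the product of Nfkb1 enter the nucleus, while the noncanonical arm uses Relb with the product of Nfkb2 and is prominent in dendritic cells. Nfkbia is itself a target of NF-kB, so its mRNA is resynthesized as its protein is lost, and Nfkbiz and Bcl3 bind nuclear subunits and redirect them to particular genes. Ionizing radiation is a known activator of the pathway.

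The stretches before the starts of Nfkbia, Rel and Nfkbie are shown because each carries the kind of sequence that NF-kB dimers bind. Of the 10 genes, 7 had a promoter in the RefSeq table used (GRCm38.p6, 250 bases before to 50 after the start), and 5 of these 7 held a match to the kB consensus on either strand, against 9.55% of all 27025 genes with a promoter in the table and 8.46% of all 32851 promoters of the same length. Overlapping matches were joined. The 250 bases before the start are given 5′ to 3′ on the strand of the gene, with kB matches in capitals.
Nfkbia, chr12:55492648-55492897, minus strand: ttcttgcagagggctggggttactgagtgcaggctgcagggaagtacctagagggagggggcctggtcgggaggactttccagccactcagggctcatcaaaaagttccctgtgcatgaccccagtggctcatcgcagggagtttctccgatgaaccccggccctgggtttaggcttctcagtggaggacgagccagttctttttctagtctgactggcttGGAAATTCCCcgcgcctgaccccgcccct
Rel, chr11:23770970-23771219, minus strand: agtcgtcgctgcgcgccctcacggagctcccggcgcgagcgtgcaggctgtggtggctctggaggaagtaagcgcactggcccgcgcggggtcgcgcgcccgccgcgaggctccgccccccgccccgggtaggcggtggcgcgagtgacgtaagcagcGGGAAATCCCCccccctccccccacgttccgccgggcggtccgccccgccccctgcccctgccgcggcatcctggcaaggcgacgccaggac
Nfkbie, chr17:45555450-45555699, plus strand: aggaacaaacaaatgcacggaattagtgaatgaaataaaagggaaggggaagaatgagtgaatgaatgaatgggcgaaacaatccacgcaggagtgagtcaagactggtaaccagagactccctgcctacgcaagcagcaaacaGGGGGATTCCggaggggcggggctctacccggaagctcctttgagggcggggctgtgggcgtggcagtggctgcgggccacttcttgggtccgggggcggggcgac
The match began 29 bases before the start in Nfkbia, 92 bases before it in Rel and 106 bases before it in Nfkbie. The first promoter of Nfkb2 held GGGAATTCCCC 39 bases and GGGGCTTTCC 11 bases before the start, and that of Bcl3 held GGGAAGTCCC 2 bases after it. Rela and Nfkbib held none in these windows. A match is a likeness of letters, and binding was not measured.

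Mature DCs, the migratory dendritic cells that have left antigen uptake for T cell priming, stood apart from every other compared lineage in the noncanonical and several canonical genes. Relb, the subunit of the noncanonical arm, stood in mature DCs at 412 CPM in Control (95% interval 373 to 454) and 488 CPM in IR (454 to 523), while the other 5 compared lineages lay between 23.6 and 42.6 CPM in both libraries. The distance to the next lineage in that order was 10.4-fold in Control, and the T, NK, monocyte and fibroblast levels below it overlapped from one neighbour to the next. Nfkb2, its partner, was at 295 CPM (262 to 331) and 319 CPM (292 to 348) in mature DCs, above fibroblasts at 137 and 138 CPM and macrophages at 48.9 and 44.2 CPM. Mature DCs also had the highest Nfkb1 (767 and 669 CPM), Rel (695 and 528 CPM) and Nfkbib (345 and 442 CPM) of the 6 lineages in both libraries, with intervals apart from the next lineage each time. None of the 10 genes was among the markers that defined the lineages.

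**Figure D1:**
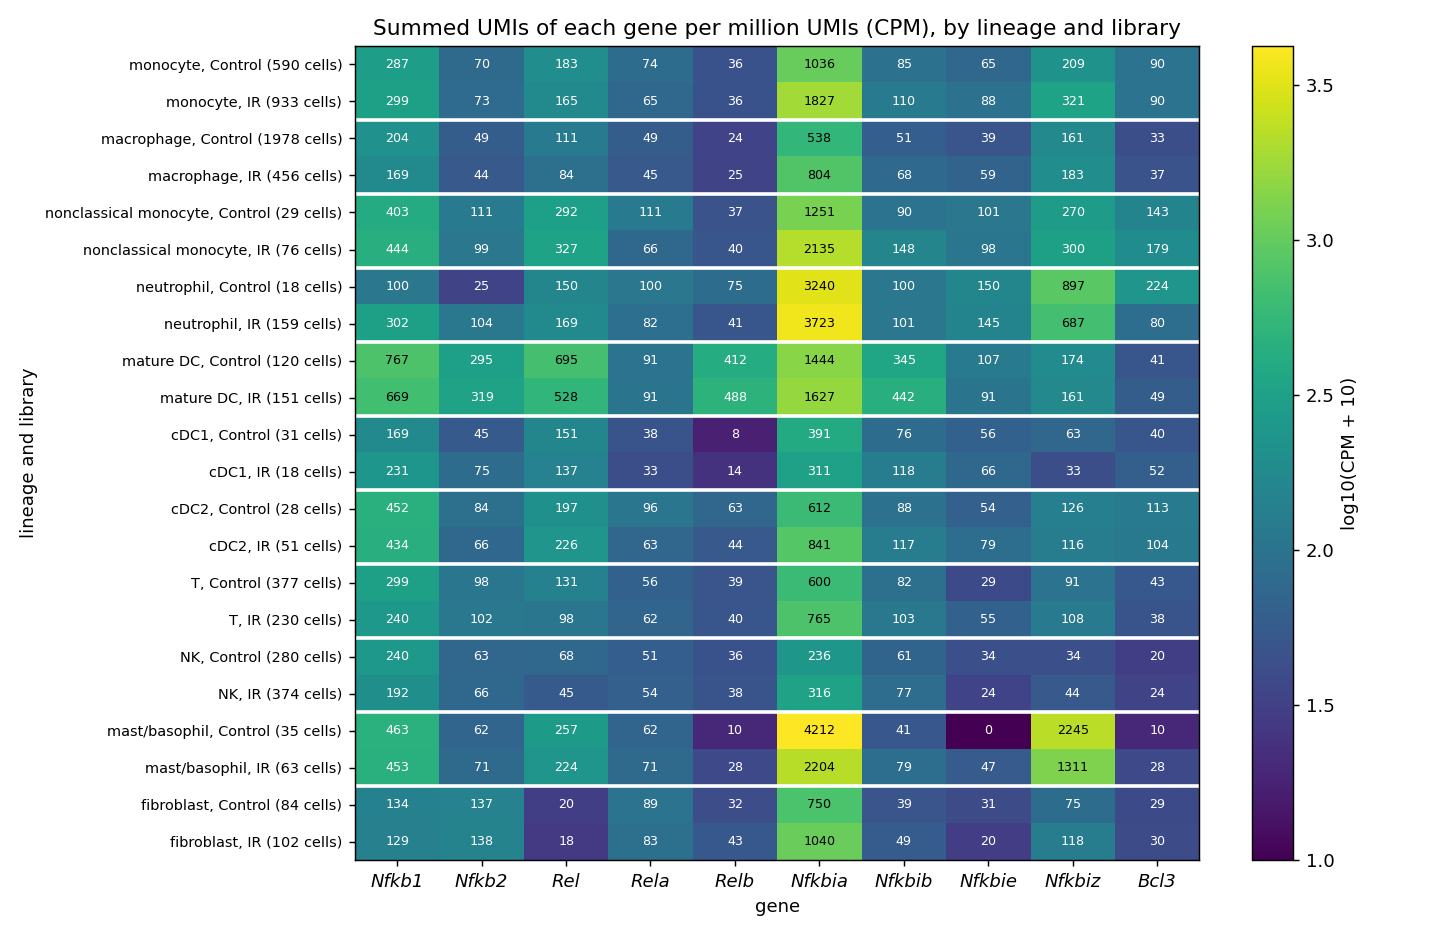
Heatmap of CPM for the 10 genes (columns) in the 11 lineages of each library (rows, with the number of cells). Colour is log10(CPM + 10) and the printed number is the CPM. Mature DCs lead in Nfkb1, Nfkb2, Rel, Relb and Nfkbib, whereas neutrophils and mast cells or basophils lead in Nfkbia and Nfkbiz.

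Mature DCs also had the highest share of cells with a Relb UMI of the 6 lineages. After each cell was thinned to 1000 UMIs, 34.2% of Control mature DCs (41 of 120) and 35.1% of IR mature DCs (53 of 151) held a Relb UMI, against 2.33% and 1.97% of macrophages, with median depths before thinning of 7830 and 8093 UMIs in Control mature DCs and macrophages. Without thinning 108 of 120 and 138 of 151 mature DCs and 17.1% and 20.8% of macrophages held one. The conventional DCs that had not matured were low in Relb, with 7.57 CPM from 3 UMIs in Control cDC1, 14.1 CPM from 3 UMIs in IR cDC1, and 62.8 and 44.0 CPM in cDC2.

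Rel, the lymphoid and myeloid subunit c-Rel, had the widest range of the subunits over the 6 compared lineages. Fibroblasts were lowest at 20.4 CPM in Control (14.6 to 27.8) and 18.1 CPM in IR, so Control mature DCs stood 34.1-fold above them. Rela, the transactivating subunit found in most cell types, had the narrowest range of the 10 genes over the 6 lineages of Control: its levels ran from 48.9 CPM in macrophages to 90.7 CPM in mature DCs, a 1.85-fold range in which each neighbour overlapped the next. Nfkb1 ran from 134 CPM in Control fibroblasts to 767 CPM in mature DCs, with T cells (299 CPM) and monocytes (287 CPM) overlapping each other in between.

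Nfkbia, the main cytoplasmic inhibitor, was high in granulocytic cells and low in NK cells. In mast cells or basophils it reached 4212 CPM in Control (3814 to 4641) and 2204 CPM in IR (2025 to 2394), and 3240 CPM (2707 to 3848) and 3723 CPM (3602 to 3848) in neutrophils. In Control the 6 larger lineages followed in the order mature DCs, monocytes, fibroblasts, T cells, macrophages and NK cells, with levels of 1444, 1036, 750, 600, 538 and 236 CPM and no overlap between neighbours. The order differed in IR, where monocytes (1827 CPM) stood above mature DCs (1627 CPM) with intervals apart. Macrophages (804 CPM) and T cells (765 CPM) overlapped there, and nonclassical monocytes (2135 CPM) overlapped mast cells or basophils. Nfkbiz, the inducible nuclear IkB, had the same leaders: 2245 and 1311 CPM in mast cells or basophils and 897 and 687 CPM in neutrophils, and of the 6 compared lineages NK cells were lowest at 33.7 and 43.8 CPM. Bcl3, the other nuclear IkB, was highest of the 6 in monocytes, at 89.9 CPM in Control (309 UMIs, and 670 UMIs in IR), and stood at 143 and 179 CPM in nonclassical monocytes and 113 and 104 CPM in cDC2. Neutrophils stood at 224 CPM from 9 UMIs in Control and 79.7 CPM from 76 UMIs in IR.

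**Figure D2:**
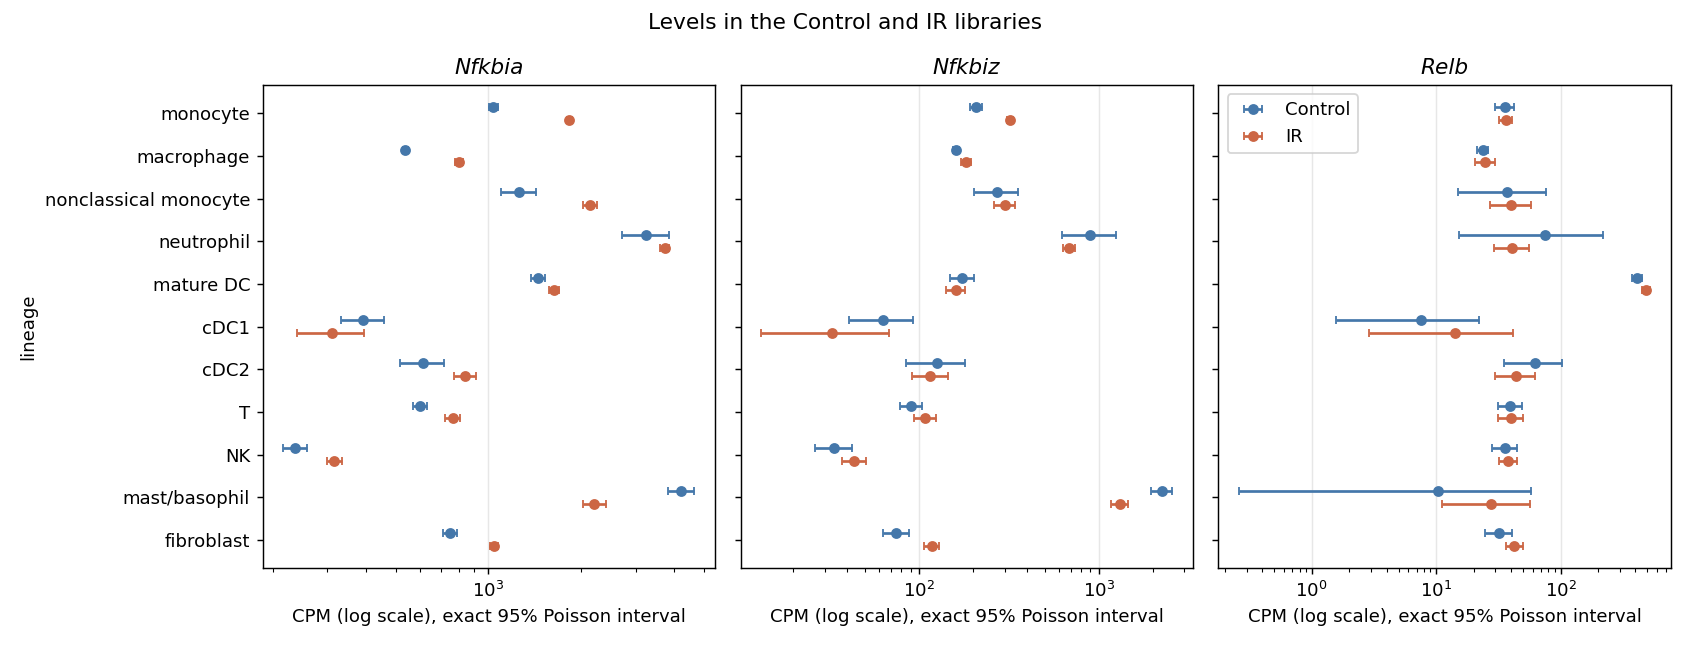
CPM (log scale) of Nfkbia, Nfkbiz and Relb in the 11 lineages of the Control (blue) and IR (orange) libraries, with exact 95% Poisson intervals. Nfkbia is higher in IR than in Control monocytes (1827 against 1036 CPM) and lower in IR mast cells or basophils (2204 against 4212 CPM), and Relb is highest in mature DCs (412 and 488 CPM).

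The cytoplasmic inhibitor Nfkbia was higher in the IR library in all 6 compared lineages. Monocytes held 1036 CPM in Control (1002 to 1070) and 1827 CPM in IR (1796 to 1858), 1.76-fold (95% interval 1.70 to 1.83). Macrophages held 538 CPM (527 to 549) and 804 CPM (779 to 829), 1.49-fold. In the macrophage gate the summed level of the 6 monocyte markers was 448 CPM in Control against 1104 CPM in IR, that of the 5 macrophage markers was 8305 and 6552 CPM, and their part in this value was not tested. Fibroblasts held 750 and 1040 CPM (1.39-fold), NK cells 236 and 316 CPM (1.34-fold) and T cells 600 and 765 CPM (1.28-fold). The smallest distance was in mature DCs, with 1444 CPM (1370 to 1520) and 1627 CPM (1565 to 1690), 1.13-fold. In each of the 6 lineages the 2 intervals did not overlap.

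The sign in all 6 lineages is to be read against all genes. Of 6351 genes with at least 20 UMIs in each of the 6 lineages, 7.64% were higher in IR in every lineage and 10.0% were lower in every lineage. Among the 10 genes 3 were higher in all 6, Nfkbia, Nfkbib and Relb, and 1, Rel, was lower in all 6. Nfkbib, the second cytoplasmic IkB, had ratios close to each other, with log2 values from 0.32 in T cells to 0.41 in macrophages. Its levels were 85.0 and 110 CPM in monocytes and 345 and 442 CPM in mature DCs, and the 2 intervals overlapped in T cells, NK cells and fibroblasts. Relb was nearly level outside mature DCs (412 and 488 CPM) and fibroblasts (32.1 and 42.6 CPM, intervals overlapping).

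Rel was lower in IR in each of the 6 lineages, most in NK cells (67.9 and 45.3 CPM, log2 ratio -0.58), then 1.34-fold in T cells (131 and 98.2 CPM), 1.32-fold in macrophages (111 and 83.7 CPM) and in mature DCs (695 and 528 CPM), and 1.11-fold in monocytes (183 and 165 CPM). The 2 intervals overlapped in monocytes and in fibroblasts, where the value rests on 40 and 66 UMIs. Nfkb1, the precursor of the canonical partner of Rel, was also lower in macrophages (204 and 169 CPM), T cells (299 and 240 CPM), NK cells (240 and 192 CPM) and mature DCs (767 and 669 CPM). In monocytes Nfkb1 was at 287 and 299 CPM with overlapping intervals. Rela and Nfkb2 had overlapping intervals in all 6 lineages, with log2 ratios of -0.18 to 0.14 and -0.14 to 0.11.

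**Figure D3:**
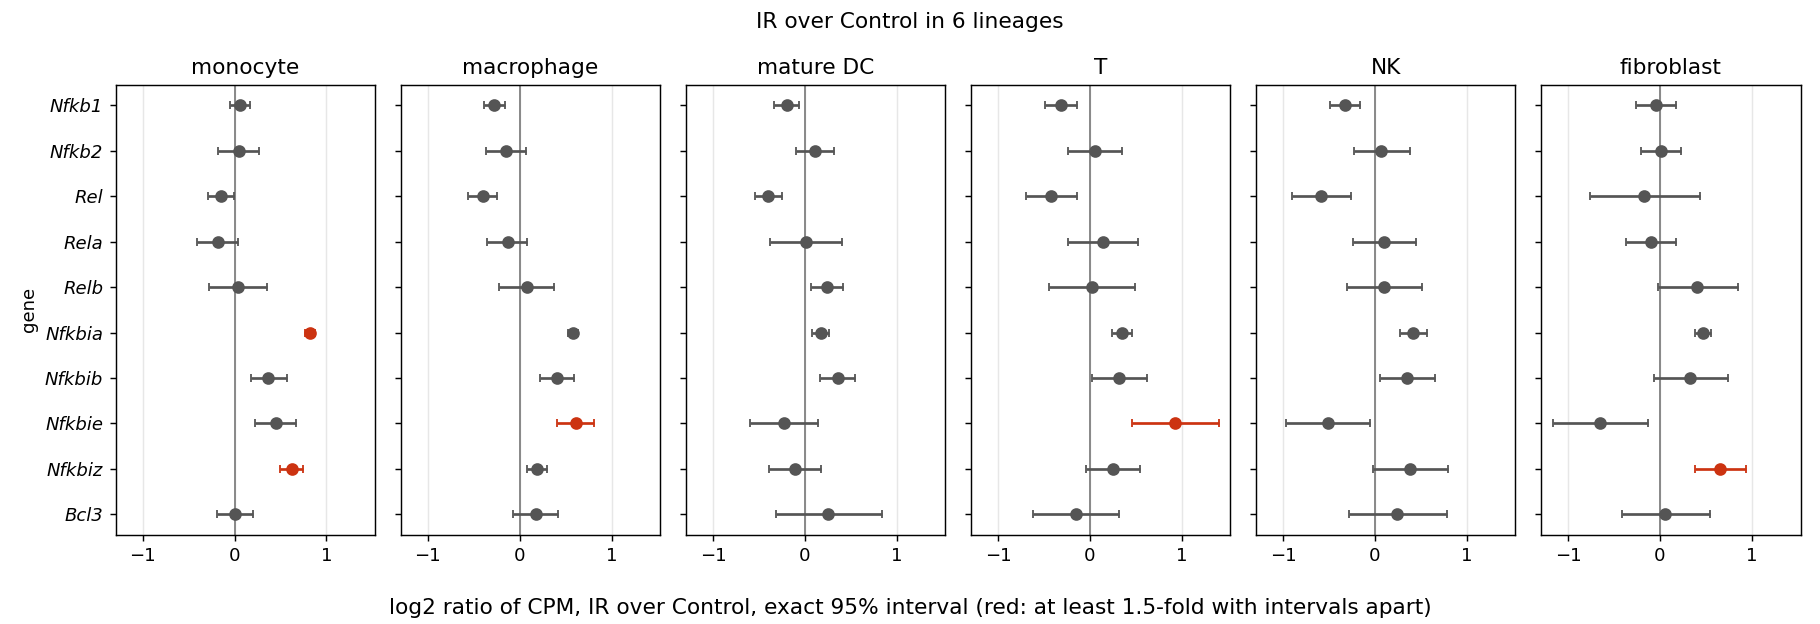
log2 ratio of CPM, IR over Control (horizontal axis), for the 10 genes in the 6 compared lineages, with exact 95% intervals for counting error. Red points are at least 1.5-fold with intervals apart. Nfkbia lies to the right of 0 in every panel (0.17 to 0.82) and Rel to the left (-0.58 to -0.15).

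A stricter rule of size, at least 1.5-fold with non-overlapping Poisson intervals among genes with at least 20 UMIs, called 5 of the 60 gene and lineage pairs higher in IR and 0 lower. With 1 library a group this is a rule of size and no test was run. In monocytes Nfkbia and Nfkbiz were called higher, 2 of 10 genes, against 3.75% of 10024 genes called higher and 2.92% called lower. The call of Nfkbiz was lost with CPM over genes other than mitochondrial and ribosomal protein genes (log2 0.62 and 0.56). In macrophages Nfkbie was called higher (log2 0.61), against 4.53% of all genes higher and 6.83% lower. That call was lost, at log2 0.51 to 0.57, without the highest Scrublet scores, with CPM over genes other than mitochondrial and ribosomal protein genes, without cells holding Dcstamp or Ccl17 and with the mean of per-cell CPM. In macrophages Nfkbia fell just short of the fold at 1.49. It was called with TMM scaling (1.58-fold), without cells holding Dcstamp or Ccl17 (1.65-fold) and with the mean of per-cell CPM (1.64-fold). Nfkbie was also the call in T cells, where 3.13% of all genes were higher and 1.63% lower. Nfkbiz was the call in fibroblasts, where 3.35% of genes were higher and 4.01% lower, and it was lost with the mean of per-cell CPM (log2 0.66 and 0.56). That setting called Relb, Nfkbia and Nfkbib higher in fibroblasts instead. None of the 10 was called in mature DCs, where 4.29% of genes were higher and 2.33% lower, nor in NK cells, where 2.11% were higher and 3.19% lower. Rel in NK cells fell just short of a lower call.

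Nfkbie, the third cytoplasmic inhibitor, did not move one way. It was higher in IR T cells (29.2 and 55.4 CPM, 63 and 101 UMIs), macrophages (38.8 and 59.2 CPM) and monocytes (64.6 and 88.1 CPM). In NK cells (33.7 and 23.7 CPM) and fibroblasts (31.1 and 19.8 CPM) the IR value was the lower one, with overlapping Poisson intervals and a ratio interval below 0 in both (log2 -0.97 to -0.05 and -1.16 to -0.14). The mean of per-cell CPM turned the direction in NK cells (log2 -0.51 and 0.20). Nfkbiz was higher in monocytes, at 209 CPM (194 to 225) and 321 CPM (308 to 334), and in fibroblasts, at 74.9 CPM (63.3 to 88.0) and 118 CPM (107 to 130). It was nearly level in mature DCs (174 and 161 CPM). Bcl3 had overlapping intervals in all 6 lineages, and a log2 ratio between -0.15 and 0.25.

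Summed by role, the cytoplasmic IkB genes had a higher ratio than the subunits in each of the 6 compared lineages. In monocytes the 5 subunits together were at 650 CPM in Control and 638 CPM in IR (log2 ratio -0.03, -0.10 to 0.05), while the 3 cytoplasmic IkB genes went from 1185 to 2025 CPM (log2 0.77, 0.72 to 0.82) and the 2 nuclear ones from 299 to 411 CPM (log2 0.46, 0.36 to 0.56). In macrophages the subunits went from 436 to 366 CPM (log2 -0.25, -0.33 to -0.18) and the 3 cytoplasmic IkB genes from 628 to 931 CPM (log2 0.57, 0.52 to 0.62). The log2 ratios of subunits and cytoplasmic IkB genes were -0.20 and 0.38 in T cells, -0.21 and 0.34 in NK cells, -0.11 and 0.19 in mature DCs and -0.0025 and 0.44 in fibroblasts. Nfkbia made up most of the cytoplasmic IkB UMIs. Without it the other 9 genes summed to 1098 and 1246 CPM in monocytes (log2 0.18) and to 720 and 714 CPM in macrophages (log2 -0.01). Their log2 ratio was 0.10 in fibroblasts, -0.04 in T cells and -0.04 in mature DCs, each with an interval that included 0. In NK cells it was -0.10, with an interval below 0 (-0.20 to -0.003).

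Of the 5 lineages outside the 6, Nfkbia was higher in IR with intervals apart in nonclassical monocytes and cDC2 and lower in mast cells or basophils. In mast cells or basophils (35 and 63 cells) Nfkbia fell from 4212 to 2204 CPM and Nfkbiz from 2245 CPM (1957 to 2564) to 1311 CPM (1174 to 1459), both with intervals apart. Of 12 immediate-early and handling genes, which respond within minutes to tissue dissociation, 8 were also lower in the IR mast cells or basophils with intervals apart and 0 were higher. Among the 8 were Egr1 (11257 and 4353 CPM), Jun (3121 and 1181 CPM) and Zfp36 (3430 and 1303 CPM). In neutrophils 4 of the 12 were lower and 1 was higher, with overlapping Nfkbia intervals. The share over all genes was not counted in these small lineages, so the counts have no baseline. The part of the 12 genes in the values of Nfkbia and Nfkbiz was not tested. Nonclassical monocytes (29 and 76 cells) held 1251 CPM (1097 to 1422) and 2135 CPM (2031 to 2242) of Nfkbia, the same side as classical monocytes. cDC2 (28 and 51 cells) held 612 CPM (516 to 719) and 841 CPM (773 to 912). cDC1 (31 and 18 cells) held 391 and 311 CPM and neutrophils (18 and 159 cells) 3240 and 3723 CPM, both with overlapping intervals.

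Within monocytes more cells held several Nfkbia molecules in the IR library. At 1000 UMIs per cell, 52.5% of Control monocytes (48.4% to 56.6%, Clopper-Pearson) and 62.9% of IR monocytes (59.7% to 66.0%) held at least 1 Nfkbia UMI, and 13.6% and 28.7% held at least 3. Without thinning the shares were 81.7% and 89.1%, at median depths of 5310 and 7381 UMIs. In macrophages the thinned shares were 34.7% (32.6% to 36.9%) and 41.0% (36.5% to 45.7%), and those with at least 3 UMIs were 5.97% and 12.9%. NK cells had the lowest shares of the 6, at 23.9% (19.1% to 29.4%) and 32.4% (27.6% to 37.4%), and no lineage lacked the gene. Droplets with under 100 UMIs, which carry free RNA, held 611 CPM of Nfkbia in Control and 981 CPM in IR. In these droplets 5 of the 10 genes were higher in IR with intervals apart, against 7.95% of 10660 genes. Free RNA was estimated at 0.27% to 5.39% of the UMIs of a lineage, and with it subtracted the Nfkbia ratio in monocytes was 1.74-fold.

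Subsets of 2 lineages were set side by side. CD8 T cells, taken as Cd4-negative T cells with a UMI of Cd8a or Cd8b1 (186 and 112 cells), had Nfkbia at 329 CPM in Control (298 to 362) and 546 CPM in IR (502 to 594), and Nfkb1 at 254 CPM (227 to 284) and 167 CPM (143 to 194). Foxp3 T cells, the regulatory subset (49 and 20 cells), had Nfkbia at 1056 CPM (930 to 1195) and 1174 CPM (1037 to 1326), above CD8 T cells in both libraries and overlapping between them. Macrophages with a UMI of Dcstamp or Ccl17 (345 and 97 cells) had Nfkbia at 696 and 804 CPM, and those without (1633 and 359 cells) at 487 and 803 CPM, with intervals apart in Control and overlapping in IR. These contrasts between subsets were not tested. The sum of monocytes and macrophages had Nfkbia at 620 and 1425 CPM, 2.30-fold, a wider ratio than either alone (1.76-fold and 1.49-fold). Monocytes made up 590 of 2568 of these cells in Control and 933 of 1389 in IR. In this sum Rel was higher in IR, at 122 and 133 CPM (log2 ratio interval 0.03 to 0.21), although it was lower in each lineage alone. Nfkb1 was also higher in the sum, at 218 and 248 CPM, although it was lower in macrophages.

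Some ratios changed when the cells of a gate were chosen otherwise. In the monocyte gate S100a8 and S100a9 together, genes of neutrophils and early monocytes, were at 82.9 CPM in Control and 548 CPM in IR. The neutrophil markers together were at 72.5 and 119 CPM in this gate. Without cells holding a UMI of Csf3r, Cxcr2, Retnlg, S100a8 or S100a9 the monocyte Nfkbia ratio was 1.65-fold and that of Nfkbiz no longer reached 1.5-fold. This filter also removes monocytes that express S100a8 or S100a9, and the part of neutrophil RNA was not tested. The T and NK gates left out barcodes with more than 15 UMIs of Lyz2, Csf1r, Cd68 and Cd14 per 10000. With those barcodes kept the Nfkbia ratio was 1.71-fold in T cells and 1.75-fold in NK cells, against 1.28-fold and 1.34-fold without them.

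The lists of other pathway genes held 0 or 1 call in each direction per lineage, which is to be read against the shares over all genes given above (3.75% higher in monocytes, 4.53% in macrophages). Of 17 IKK and upstream kinase genes 1 was called higher in monocytes, Ikbke, the inducible IKK-related kinase, at 15.1 and 33.6 CPM, and it was the 1 call in macrophages too (24.3 and 37.0 CPM). Tab2 of the same list was lower in NK cells (163 and 106 CPM). Of 13 ubiquitin and adaptor genes Traf1, an NF-kB target that binds TNF receptors, was higher in monocytes (75.4 and 143 CPM) and macrophages (35.4 and 61.9 CPM), with Traf5 lower in macrophages (11.4 CPM in IR, 1.58-fold lower). Traf3, which restrains the noncanonical arm, was lower in T cells (34.8 and 16.5 CPM) and Traf2 higher in mature DCs (21.9 and 43.2 CPM). Of 11 feedback inhibitors 1 was higher in monocytes, Tnip1, a partner of A20 (46.9 and 75.2 CPM). In macrophages Pdlim2 was higher (18.3 and 32.0 CPM) and Tnip3 lower (129 and 79.9 CPM), and Tnip3 was also lower in fibroblasts on 17 and 5 UMIs. Tnfaip3, which encodes A20 and is the best known of these inhibitors, was called in none of the 6, with 186 and 226 CPM in monocytes and 480 and 340 CPM in T cells. The median log2 ratio in monocytes was 0.05 for the 10 genes, 0.28 for the feedback inhibitors, 0.16 for the adaptors and -0.11 for the kinases, beside -0.07 for all genes.

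**Figure D4:**
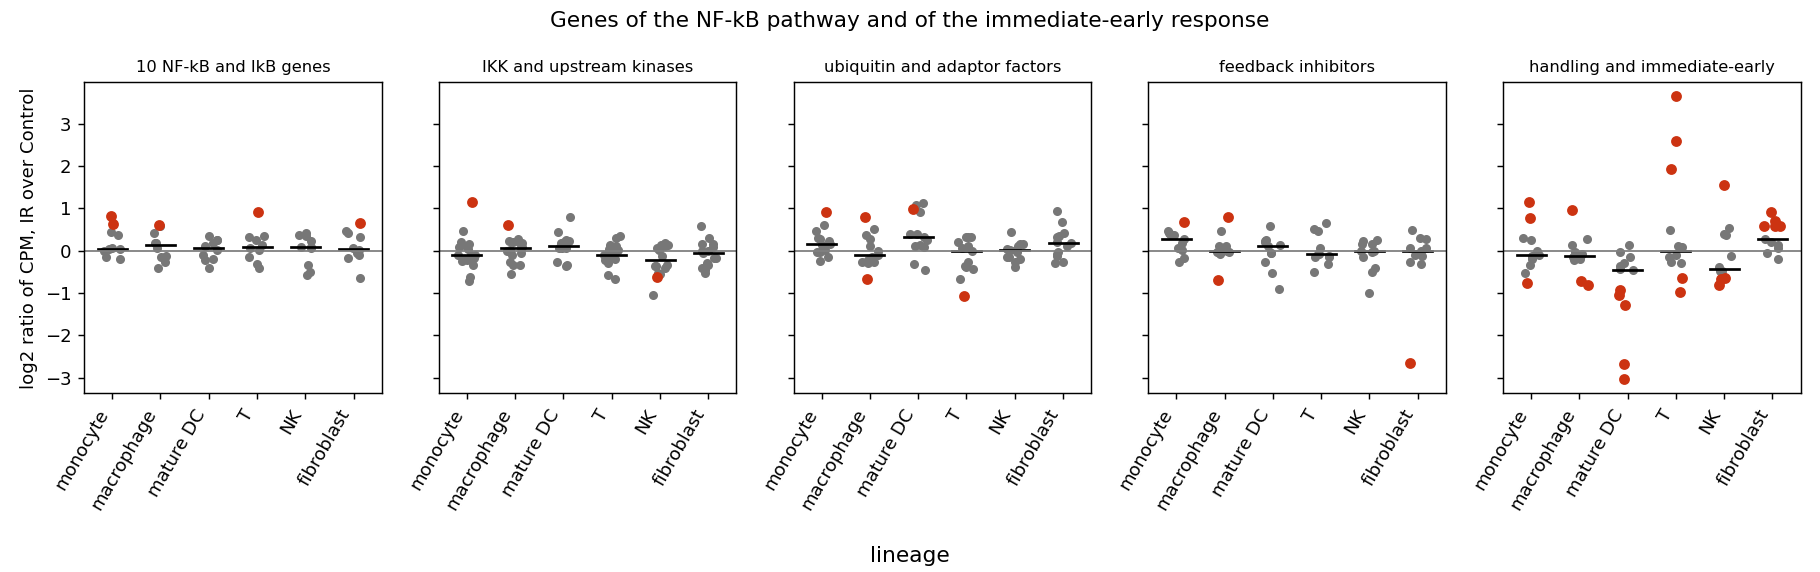
log2 ratio of CPM, IR over Control, of each measured gene (points) in the 6 compared lineages for the 10 NF-kB and IkB genes, 3 lists of pathway genes and the immediate-early and handling genes. Red points pass the rule of size and black bars are medians. Medians of the 3 pathway lists run from -0.23 (kinases in NK cells) to 0.33 (adaptors in mature DCs), with single genes farther from 0. The immediate-early genes spread most, from -3.03 for Hspa1a in mature DCs to 3.64 for Hspa1a in T cells.

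The immediate-early genes did not all follow Nfkbia. Of the 12, 5 were called lower and 0 higher in mature DCs (median log2 -0.45), and 3 lower and 1 higher in NK cells (median -0.43). In T cells 2 were lower and 3 higher, in macrophages 2 and 1, and in monocytes 1 and 2. In fibroblasts 0 were lower and 5 higher of 11 measured (median 0.29). The shares over all genes in these lineages are given above. Fosb was called lower in monocytes (527 and 313 CPM), macrophages (520 and 319 CPM), mature DCs (372 and 153 CPM), T cells (430 and 220 CPM) and NK cells (220 and 126 CPM). Ier3, an NF-kB target as well as an immediate-early gene, was called higher in monocytes (884 and 1523 CPM), macrophages (501 and 973 CPM), T cells (47.8 and 181 CPM), NK cells (17.8 and 52.1 CPM) and fibroblasts (756 and 1419 CPM). In fibroblasts Fos, Atf3, Dusp1 and Hspa1b were called higher as well. The part of tissue handling in the Nfkbia values was not tested.

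Across the 16 populations of at least 50 cells, Nfkb1 and Rel had the highest correlation of any pair of the 10 genes (Pearson r = 0.96 on log2(CPM + 10)). Relb with Nfkbib (0.89) and Nfkb1 with Nfkbib (0.88) followed. The populations share libraries and the mature DCs carry much of the range, so these values are a description. Of all 5499 genes searched, the 3 most like Rel were Jak2 (0.97), Ikbkb (0.96) and Nfkb1 (0.96). Those most like Relb were Gm13546, Apol7c and Mreg (each 0.98 or above), and Apol7c is a gating marker of mature DCs. The most like Nfkbia were Zswim4 (0.89), Ppp1r15a (0.87) and Nfkbiz (0.87).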

How the data were processed

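The authors sorted CD45+ cells, made 10x Chromium 3′ v3.1 libraries and deposited unfiltered matrices of counts (UMIs per gene and barcode) for each library. Per the labels and the methods, Cell Ranger 6.0.1 and mm10 were used, while the matrix header names Cell Ranger 4. Here barcodes with at least 1000 UMIs and at most 25% mitochondrial UMIs were gated by at least 3 markers of a lineage, with 3 times the UMIs of the next lineage and at most 15 macrophage UMIs per 10000. Monocytes and macrophages were the remaining barcodes with more than 15 UMIs of Lyz2, Csf1r, Cd68 and Cd14 per 10000, split by the larger of their marker sums. That limit was chosen after seeing the data. UMIs were summed per lineage, and ratios have exact conditional 95% intervals. Named genes were the 10 members, the called genes of the pathway lists and the 3 genes most like a member. The members and lists were chosen with earlier results of these data known. With 1 library a group no test was made. A value of 0 of n allows up to 3 counts. Doublets were not removed in the main values. Scrublet (scanpy 1.11.5) marked 0 and 1 barcodes at its own threshold, so the highest 6% of scores were removed as an alternative, and edgeR 4.0.16 gave TMM factors for another. The call rule was run on simulated counts that held counting error only, which cannot show variation between tumors or libraries.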

Additional observations from a re-analysis of the deposited data

Results flagged for a closer look

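The differences below were picked because 2 lineages moved in opposite directions, each with a ratio interval apart from 0, and the difference between lineages was not tested. Nfkbia had a log2 ratio of IR over Control of 0.82 in monocytes and -0.93 in mast cells or basophils. Nfkbiz had 0.66 in fibroblasts and -0.78 in mast cells or basophils. Nfkbie had 0.92 in T cells and -0.65 in fibroblasts. Nfkb1 had 1.60 in neutrophils, resting on 4 Control UMIs, and -0.33 in NK cells. In the IR droplets with under 100 UMIs, which are in no comparison, 5 of the 10 genes were above their level in the same droplets of Control with intervals apart (7.95% of 10660 genes were), at 981 CPM for Nfkbia, 115 CPM for Nfkbib, 162 CPM for Nfkbiz, 57.4 CPM for Bcl3 and 45.6 CPM for Relb.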

How the results depend on the processing

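No paired analysis was possible because each group was 1 library. The sum of the 10 genes kept a positive log2 ratio under every alternative in 5 of the 6 compared lineages, the exception being mature DCs. With Nfkbia left out, the main log2 ratio of the other 9 genes was above 0 only in monocytes (0.18) and fibroblasts (0.10). The interval lay above 0 in monocytes (0.13 to 0.24) and included 0 in fibroblasts (-0.002 to 0.20). In mature DCs the sum of the 10 was at 0.03 in the main values, -0.021 with TMM and -0.016 without the highest Scrublet scores. It moved to -0.066 there with CPM over genes other than mitochondrial and ribosomal protein genes. That scaling also gave 0.46 in monocytes (0.53 in the main values) and 0.18 in macrophages (0.27), with 3 higher calls and 1 lower. TMM gave 0.59 in monocytes and 0.35 in macrophages. Other monocyte and macrophage genes gave 0.64 in monocytes, leaving out neutrophil UMIs 0.47, and leaving out Dcstamp or Ccl17 0.34 in macrophages. The mean of per-cell CPM gave 0.36 in macrophages, 0.016 in T cells (0.13), 0.15 in NK cells (0.06) and 0.44 in fibroblasts (0.32), and turned Nfkbie in NK cells to 0.20. Without the limit on myeloid RNA, an alternative added after seeing the data, T cells were at 0.48 and NK cells at 0.34, with 9 higher calls. The 1 lower call, Rel in NK cells, also appeared at 500 and 2000 UMIs per barcode, at 10% mitochondrial UMIs and with free RNA subtracted (1 each). A fold of 2 left 0 higher calls. Over these alternatives Nfkbia stayed higher in the 6 lineages, and its log2 ratio ranged from 0.73 to 0.98 in monocytes and from 0.08 to 0.22 in mature DCs. Rel stayed lower in 5 of the 6 and ranged from -0.34 to 0.13 in fibroblasts. Nfkbiz ranged from -0.07 to 0.83 in T cells. The causes were not tested.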
